A study of Mus musculus with 502 samples.

Results

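Nuclear and ribosomal noncoding RNA genes were read in single Cd45+ cells sorted from mouse kidneys that were used fresh or kept cold for up to 4 days. The group holds 6 genes, Rn18s.rs5, Malat1, Neat1, Gas5, Rn7sk and Yam1, of 46603 gene rows in the count table, 20568 of which had a read in at least 1 cell. They were selected by symbol with earlier results of these data known, for their levels across timepoints and pools and against the number of genes read per cell, so these values are given as a description, with no test.

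The kidneys came from wild type CD1 mice of about 3 weeks and were kept in HypoThermosol FRS, a hypothermic preservation solution, at 4 °C for 6 h or 1, 2, 3 or 4 days. Fresh kidneys without storage served as the reference. Kidneys of the same mouse were pooled at each timepoint, whole kidneys up to day 2 and parts of kidneys later, and propidium iodide-negative Cd45+ cells were sorted one to a well. The labels carry 3 prefixes, taken here as library pools: IM793 held 75 fresh, 76 6 h, 78 day 2 and 2 day 4 cells, IM834 held 81 fresh, 75 day 1, 82 day 3 and 19 day 4 cells, and IM790 held 14 day 4 cells. No label names an animal, so the cells of a timepoint and pool are treated as 1 sample, the animal and the timepoint cannot be told apart, and no p-value is given. Of the 502 cells, 90.8% had a read of Ptprc, which encodes Cd45. Ptprc was read in 97.5% of fresh, 80.5% of day 3 and 42.1% of day 4 cells of IM834, the last being the lowest share of any group. Tubule and endothelial markers (Umod, Slc34a1, Kap and Kdr) were each read in at most 3.78% of cells, and Aqp2 and Emcn in none.

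Ribosomal RNA makes up most of the RNA of a cell, and its 18S form is the core of the small ribosomal subunit. Malat1 and Neat1 are long noncoding RNAs that stay in the nucleus: Malat1 collects in speckles, where splicing factors are stored, and Neat1 is the scaffold of paraspeckles. Rn7sk, the 7SK RNA made by RNA polymerase III, holds the elongation kinase P-TEFb inactive in the nucleus. Gas5 is a host gene of small nucleolar RNAs whose spliced transcript is capped, polyadenylated and carries a terminal oligopyrimidine start, the feature it shares with ribosomal protein mRNAs. No function is given here for Yam1.

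The cDNA was primed with oligo dT, so the adenine runs of these transcripts are shown, since most of the 6 are not ordinary polyadenylated mRNAs. The letters are from the GENCODE M21 transcripts of GRCm38, with the longest adenine run of each transcript in capitals and up to 20 bases on each side.
Malat1: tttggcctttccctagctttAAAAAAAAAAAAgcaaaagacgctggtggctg
Neat1: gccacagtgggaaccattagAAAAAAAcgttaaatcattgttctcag
Rn18s-rs5 locus (Gm42418): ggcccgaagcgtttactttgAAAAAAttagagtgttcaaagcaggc
Gas5: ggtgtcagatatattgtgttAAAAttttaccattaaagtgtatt
Rn7sk: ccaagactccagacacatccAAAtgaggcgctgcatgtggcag
The runs were 12 bases in Malat1, 298 bases before the end of its 6983-base transcript, 7 in the 20771-base Neat1 transcript, 6 in the 1831-base Gm42418 transcript, 4 in the 665-base Gas5 transcript and 3 in the 331-base Rn7sk transcript. Neither the Rn7sk nor this Gas5 transcript held a run of 6 or more. Which priming site a read came from was not tested. The 5′ end of Rn7sk is shown as well, because its summed level was above that of fresh cells at every storage time, with each GATC in capitals. These letters occur 3 times in the whole transcript, all inside this window.
Rn7sk 5′ end: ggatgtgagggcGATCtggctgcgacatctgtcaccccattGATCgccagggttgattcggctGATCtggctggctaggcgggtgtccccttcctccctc

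On GRCm38, RefSeq places Malat1 at chr19:5795690-5802672 and Neat1 at chr19:5824708-5845480, both on the minus strand and 22035 bases apart. Gas5 is at chr1:161034601-161038539, and Rn7sk, 332 bp long, at chr9:78175302-78175633. Rn18s-rs5, written Rn18s.rs5 in the count table, is annotated as a pseudogene of 1849 bp at chr17:39846354-39848202. GENCODE gives 1245 of these bases to Gm42418, and Gm26917, a row of its own in the table, ends 12 bases before the Rn18s-rs5 start. Ribosomal RNA repeats and 7SK have many near-identical copies in the genome, so the reads on the Rn18s.rs5 and Rn7sk rows cannot be assigned to one locus with certainty. Yam1 had no match in the annotation used here, and no position is given for it.

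The 6 genes held 7.07% of all counts on gene rows, and Rn18s.rs5 alone held 6.60%. Per kilobase of gene and over all cells, the summed level was 35712 CPM (counts per 1000000) for Rn18s.rs5, 518 for Malat1, 104.9 for Rn7sk and 28.1 for Neat1. For the spliced Gas5 the value depended on the length used, at 95.9 CPM per kilobase of the gene with its introns and 568.3 CPM per kilobase of the 665-base transcript, so its place beside Malat1 and Rn7sk is not fixed. Rn18s.rs5 was read in all 502 cells, Malat1 in 482, Yam1 in 388, Gas5 in 337, Rn7sk in 322 and Neat1 in 45.2%. The median cell had 695188 counts on gene rows, with a range of 1759 to 1895431.

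**Figure D1:**
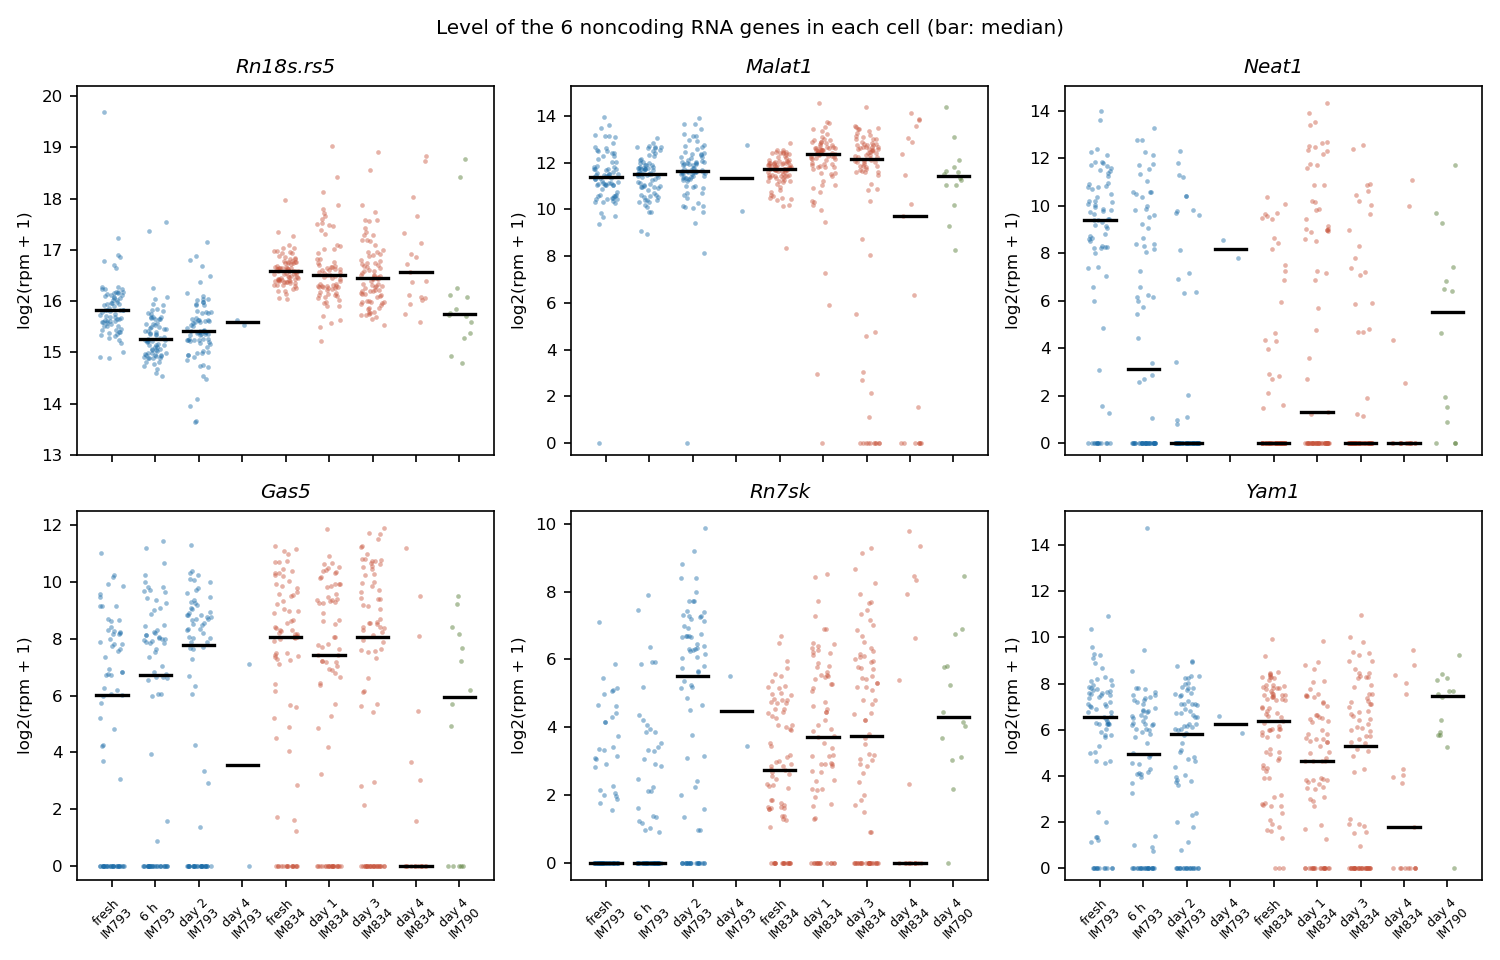
Level of each gene in each cell as log2(rpm + 1), rpm being reads per 1000000 counts on gene rows, by timepoint and pool (blue IM793, red IM834, green IM790). Each point is a cell and each bar the median; the axis of Rn18s.rs5 starts at 13. Rn18s.rs5 splits by pool, Malat1 has a tail of cells at 0 on day 3 and day 4 of IM834, and the Rn7sk median is 0 in fresh cells of IM793 and 44.6 rpm on day 2.

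Rn18s.rs5, the 18S ribosomal RNA row, followed the pool more than the storage time. In IM793 its lowest, median and highest levels were 30493, 57948 and 851620 rpm in fresh cells, 23963, 39197 and 190874 rpm at 6 h, and 12709, 43572 and 146169 rpm on day 2. In IM834 they were 67804, 98428 and 258124 rpm in fresh cells and 38311, 92927 and 535721 rpm on day 1. On later days of that pool they were 47579, 89184 and 495025 rpm on day 3 and 49122, 97886 and 467499 rpm on day 4. The medians of the 4 IM834 groups all lay above those of the IM793 groups and of the day 4 cells of IM790 (55299 rpm), while single cells overlapped. The ratio of summed CPM was 1.72 between fresh cells of the 2 pools, against 0.707 to 1.09 for the 5 comparisons of stored with fresh cells inside a pool. The pool difference was also present within marker classes, at a log2 ratio of 0.82 in Cd3e+ cells (44 and 9 cells) and 0.90 in C1qa+ C1qb+ C1qc+ cells (8 and 6 cells).

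Over all cells, the number of Rn18s.rs5 reads varied less than the depth did. The count at the 90th percentile was 2.28 times that at the 10th percentile, whereas the total count per cell differed 3.73-fold between the same percentiles. Inside the groups the ratio of counts was the smaller one in fresh cells of IM793 (2.09 against 2.41) and in all 4 groups of IM834, from 1.57 against 1.73 in fresh cells to 2.37 against 5.18 on day 3. At 6 h both were 1.95, and on day 2 of IM793 the ratio of counts, 2.26, was above that of depth, 2.09. The count itself was higher in deeper cells, with a Spearman rho against total counts of 0.13 to 0.66 in the 6 groups of at least 30 cells. The rpm level was lower in deeper cells (-0.60 to -0.78), a value that holds the same total as its denominator. The highest level of the series, 851620 rpm, belonged to the shallowest cell, with 1759 counts.

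**Figure D2:**
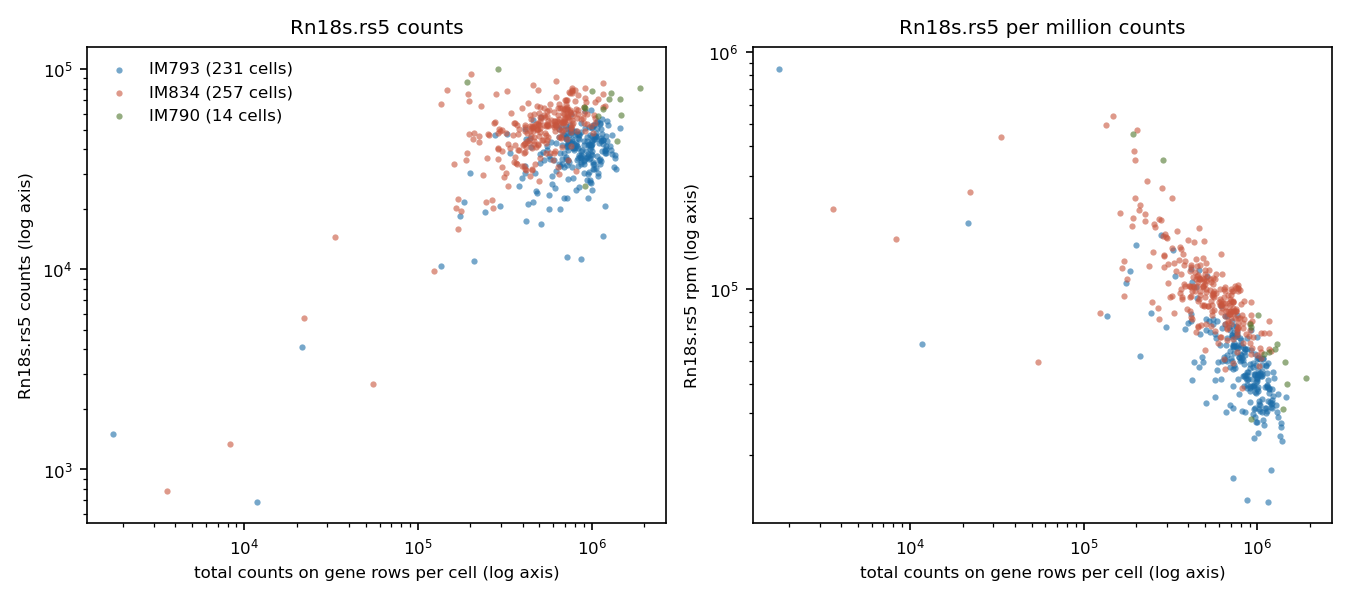
Rn18s.rs5 counts (left) and rpm (right) against total counts on gene rows for each cell, all axes logarithmic, coloured by pool. In the 494 cells of at least 100000 total counts the Rn18s.rs5 count runs from 9802 to 100729 and rises with depth, while its rpm falls with depth; 8 cells lie under 100000 counts.

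Malat1 had the highest summed CPM of the nuclear RNAs, and its summed level stayed within 2-fold of fresh cells at every storage time, while its median per cell was lower on day 4 of IM834. Its lowest, median and highest levels were 0, 2708 and 15859 rpm in fresh cells, 492, 2923 and 8467 rpm at 6 h, and 0, 3189 and 15423 rpm on day 2 of IM793. In IM834 they were 329, 3365 and 7374 rpm in fresh cells, 0, 5273 and 23989 rpm on day 1, 0, 4551 and 21066 rpm on day 3, and 0, 830 and 17893 rpm on day 4. All groups overlapped. The ratio of summed CPM to fresh cells of the same pool was 0.988 at 6 h, 1.18 on day 2, 1.51 on day 1, 1.28 on day 3 and 1.15 on day 4. By medians the day 4 log2 ratio was -2.02, and in the C1qa+ C1qb+ C1qc+ cells of day 4 it was -0.51 by sums and -6.47 by medians (10 and 8 cells). The day 1 difference was of like size in 3 marker classes of IM834, with log2 ratios of 0.56 in Cd79a+ Cd79b+ cells, 0.70 in Cd3e+ cells and 0.65 in C1qa+ C1qb+ C1qc+ cells. The fresh cells of the pools differed by as much in the latter pair of classes, at 0.67 and 0.77.

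A set of cells without any Malat1 read was present on day 3 and day 4 of IM834. Malat1 was not read in 20 cells, of which 10 were among the 82 day 3 cells and 7 among the 19 day 4 cells of IM834. This is 12.2% (exact 95% interval 6.01 to 21.3) and 36.8% (16.3 to 61.6), against 3 of the 401 other cells (0.748%, 0.155 to 2.17). The day 4 cells of the other pools did not show it, with Malat1 read in all 14 cells of IM790 (100%, 76.8 to 100) and both cells of IM793. The intervals cover counting error only. In the 17 late cells, 3 counts would correspond to 2.85 to 54.8 rpm, while the median over the 482 cells with a read was 3475 rpm and 11 of those lay under 100 rpm. Of these 11, 9 were themselves late cells of IM834, the lowest at 1.20 rpm, so the 84 cells with a read include further cells of very low level. Depth differed little, with a median of 468793 total counts in the 17 cells and 502340 in the 84 other late cells of IM834. The number of other genes read, after thinning each cell to 100000 counts, was 672 and 1457 at the median.

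Rn7sk, Gm26917 and Yam1 were scarce in the same 17 cells beside genes of like detection, Gas5 and Neat1 less clearly so. Neat1 was read in 0 of them, Rn7sk in 1, Gm26917 in 1, Yam1 in 2 and Gas5 in 5, against 27, 64, 70, 61 and 59 of the 84 late cells with Malat1. Since few genes were read in these cells at all, each share is set beside the genes whose share in the 84 cells lay within 5 percentage points. Rn7sk was read in 5.88% of the 17 cells, where the median of 78 such genes was 64.7%, and Gm26917 in 5.88%, where the median of 81 such genes was 76.5%. Yam1 reached 11.8% against 52.9% and Gas5 29.4% against 52.9%, and Neat1 was at 0 against 11.8%. Of the genes so matched, 1.28% were read as seldom as Rn7sk or less, 0% as Gm26917 and 3.06% as Yam1, whereas 19.2% were for Gas5 and 11.6% for Neat1. Some mRNAs were as scarce: Dusp1 and Ccnl1 were read in 69% and 65.5% of the 84 cells and in 0% of the 17. Ptprc was also low, in 2 of the 17 cells (11.8%) against 72 of 84. Some abundant mRNAs were read in nearly every cell of the set, such as Tmsb4x, which encodes thymosin beta 4, in all 17, and Actb and the ferritin gene Ftl1 in 16 each. Others were read less often, such as H3f3b and Coro1a, each in 47.1% of the 17 against 90.5% and 92.9% of the 84. The macrophage markers C1qa, C1qb and C1qc were read in 82.4%, 76.5% and 64.7% of the 17 against 66.7%, 63.1% and 64.3% of the 84. The C1q marker rule was met by a like share, 10 of the 17 and 51 of the 84. Apoe was read in 82.4% against 70.2%, whereas the macrophage genes Cx3cr1 (41.2% against 65.5%), Adgre1 (23.5% against 44%) and Csf1r (58.8% against 66.7%) were read less often. The 25 other genes read in at least 95% of the late cells with Malat1 were all read in at least 70.6% of those without it. Because the cells were set apart by Malat1 itself, these values are a description, and no cause was tested.

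**Figure D3:**
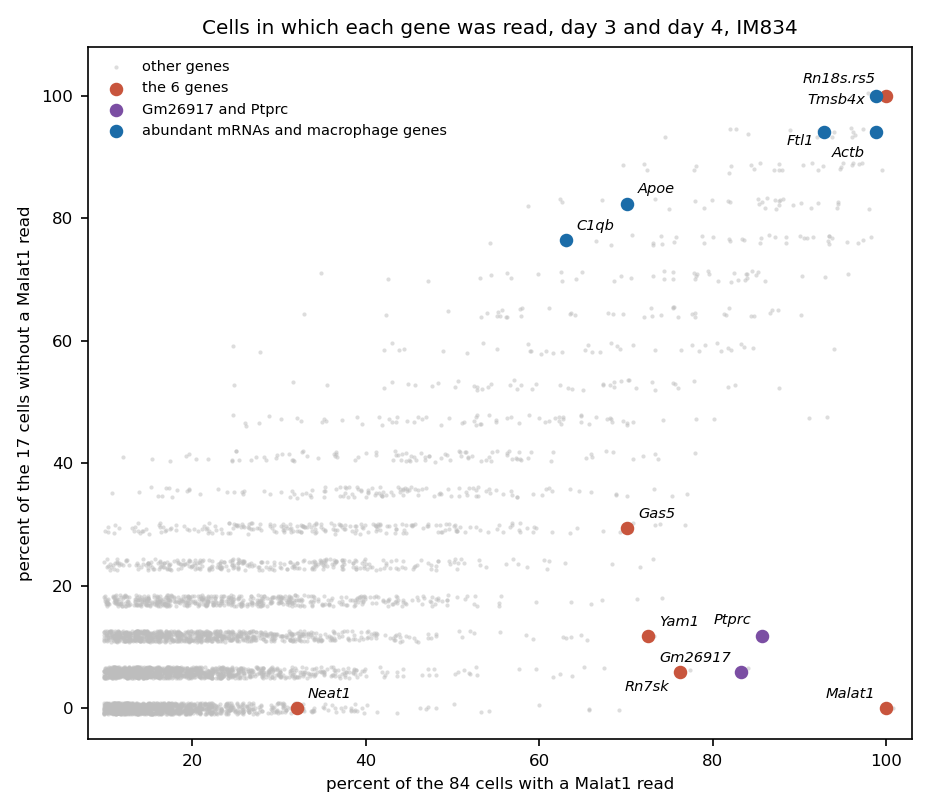
Percent of day 3 and day 4 cells of IM834 in which each gene was read, for the 84 cells with a Malat1 read (x axis) and the 17 without (y axis); grey points are all other genes read in at least 10% of the 84 cells, moved slightly at random to separate them. Rn7sk, Gm26917, Yam1 and Ptprc lie near the bottom right, while Tmsb4x, Actb, Ftl1, Apoe and C1qb, labelled after their values were seen, lie near or above the top of the cloud.

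Rn7sk was higher in summed level at every storage time than in fresh cells of the same pool. In IM793 its summed level was 7.42 CPM in fresh cells, 9.90 at 6 h and 77.1 on day 2, which is 1.33-fold and 10.4-fold. In IM834 it was 13.7 CPM in fresh cells, 31.7 on day 1, 49.9 on day 3 and 74.7 on day 4, or 2.31-fold, 3.64-fold and 5.44-fold. The day 4 cells of IM790, which have no fresh cells of their own pool, were at 51.9 CPM. These are means over all cells of a group, so more cells with the RNA and more RNA per cell cannot be told apart from them.

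Per cell, the lowest, median and highest Rn7sk levels in IM793 were 0, 0 and 136.8 rpm in fresh cells, 0, 0 and 236.8 rpm at 6 h, and 0, 44.6 and 945 rpm on day 2. The highest day 2 cells lay above every fresh cell, but 22 of 78 had no read and the groups overlapped. In IM834 they were 0, 5.66 and 101.8 rpm in fresh cells, 0, 12.1 and 365 rpm on day 1, 0, 12.4 and 625 rpm on day 3, and 0, 0 and 876 rpm on day 4. The day 4 group therefore had a median below and a sum above that of fresh cells, since 11 of its 19 cells had no read and 2 cells held at least 50 percent of its counts. The log2 ratio of medians, after adding 1, was -2.74 on day 4 against 2.44 for the sums. The cell with most reads held 12.8% of the Rn7sk counts on day 2, 6.58% on day 1 and 8.29% on day 3, but 28.2% at 6 h, where 3 cells held at least 50 percent. After thinning to 100000 counts, Rn7sk was read in 28.4% of fresh, 27% of 6 h and 65.4% of day 2 cells of IM793, and in 47.5%, 59.5%, 58% and 35.3% of fresh, day 1, day 3 and day 4 cells of IM834. Without thinning the shares were 40%, 42.1% and 71.8% in IM793 and 79%, 80%, 69.5% and 42.1% in IM834, so in IM834 day 3 lay above fresh cells only after thinning.

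Inside marker classes the Rn7sk difference was present by summed level on day 2, day 1 and day 3, with day 4 and 6 h less even. In Cd3e+ cells, which include the T cells, the summed level was 12.1 CPM fresh and 70.7 CPM on day 2 of IM793 (9 and 16 cells, log2 ratio 2.55), and 12.5 CPM fresh against 25.5 on day 1 and 26.7 on day 3 of IM834 (log2 ratios 1.03 and 1.10 with 44, 7 and 7 cells, or 0.78 and 0.65 without the top cell of each group). In C1qa+ C1qb+ C1qc+ cells, the macrophage class, it was 4.50 CPM fresh and 74.7 on day 2 of IM793 (6 and 15 cells, log2 ratio 4.05). In IM834 that class was at 15.02 CPM fresh, 51.9 on day 1 and 53.6 on day 3 (8, 20 and 51 cells, log2 ratios 1.79 and 1.84). Without the top cell of each group the day 2 value was 5.28, since 1 of the 6 fresh cells of IM793 held 68% of their reads. On day 4 its 10 cells were at 45.1 CPM (log2 ratio 1.59, or 0.27 without the top cells), but 7 of them had no read, 1 held 71.1% of the reads and the ratio of medians was -3.53. Between the fresh pools the macrophage class differed by 1.74, or 2.79 without the top cells, and the Cd3e+ class by 0.05, or 0.48. In Cd79a+ Cd79b+ B marker cells it was 7.45 CPM fresh and 11.9 on day 1 (16 and 14 cells, log2 ratio 0.67), short of 2-fold, though 1.24 where 1 read of each marker was enough to define the class. At 6 h the classes went opposite ways, at 4.97 CPM against 12.1 fresh in Cd3e+ cells and 19.5 against 4.50 in the macrophage class, on 20 and 5 stored cells. The macrophage value rested on 1 cell with 97.8% of the reads, and without the top cell of each group it was -1.57 rather than 2.12. The neutrophil class lay at -0.41 (14 and 19 cells). In the 40 Csf3r+ S100a8+ neutrophil marker cells Rn7sk was read in 37.5% at a median of 0. Fewer genes were read in that class, with a median of 1106 other genes in fresh cells of IM793 against 2192 in Cd3e+ cells.

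**Figure D4:**
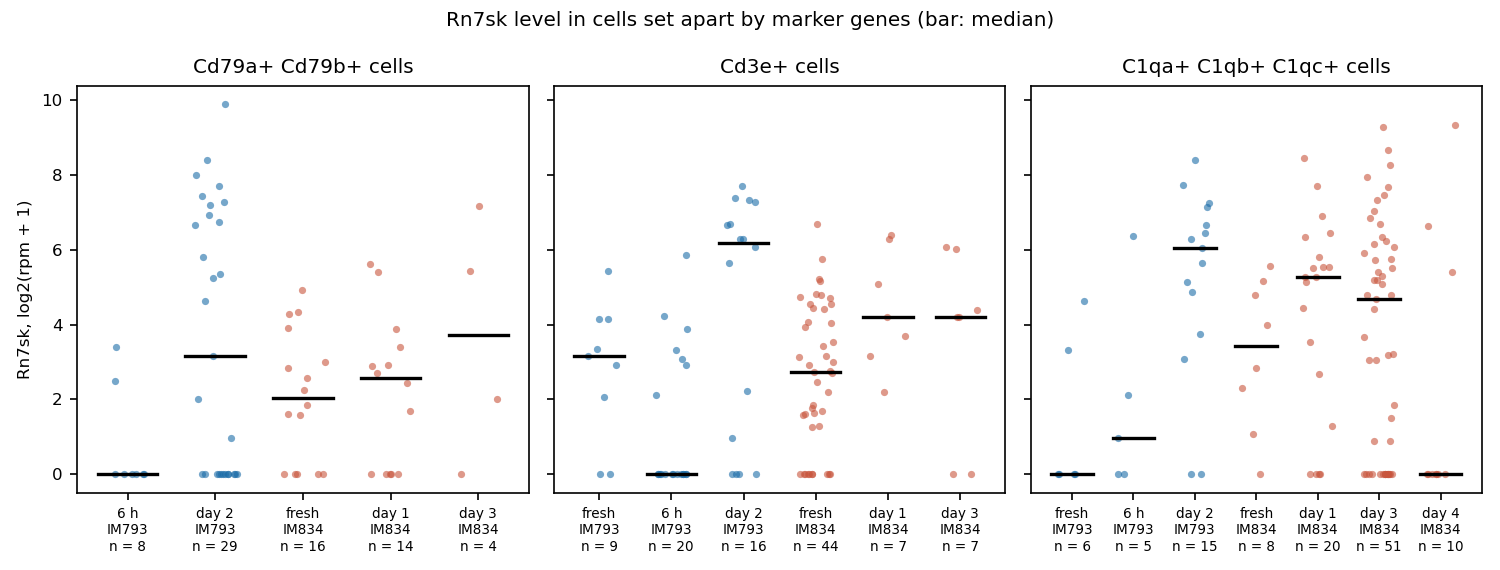
Rn7sk level as log2(rpm + 1) in cells set apart by marker genes at 10 rpm or more, by timepoint and pool (blue IM793, red IM834); points are cells, bars medians, and groups under 4 cells are left out. In Cd3e+ cells and in C1q cells the median of day 2 (71.98 and 65.3 rpm) lies above that of fresh cells of IM793 (7.87 and 0 rpm).

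Neat1 was read in fewer cells than Malat1 and most often in the neutrophil class. Over all groups it was read in 95% of the 40 Csf3r+ S100a8+ cells, at a median of 2718 rpm, against 23.3% of Cd79a+ Cd79b+ cells, 29.2% of Cd3e+ cells and 34.2% of macrophage class cells, each with a median of 0. These shares pool groups of unequal class make-up. In fresh cells of IM793 alone Neat1 was read in 18 of 19 neutrophil class cells at a median of 2479 rpm, in 5 of 6 macrophage class cells at 1062 rpm and in 5 of 9 Cd3e+ cells at 1.41 rpm. In fresh cells of IM793 Neat1 ranged from 0 to 16119 rpm with a median of 676 rpm, at 6 h from 0 to 10007 with a median of 7.86, and on day 2 from 0 to 5087 with a median of 0. In IM834 the highest level was 1325 rpm in fresh cells, 20646 on day 1, 6132 on day 3 and 2166 on day 4, with medians of 0, 1.48, 0 and 0 rpm. The summed level was 1132, 765 and 195.4 CPM in fresh, 6 h and day 2 cells of IM793, and 87.8, 1408, 255.3 and 135.5 CPM in fresh, day 1, day 3 and day 4 cells of IM834. The fresh cells of the pools thus differed 12.9-fold, and the summed level lay below fresh cells in IM793 and above them in IM834. On day 4 that direction rested on 1 cell with 54.1% of the reads: the log2 ratio was 0.63, and -0.11 without the cell with most reads in each group. In IM793 the classes did not all follow the whole group. At 6 h the log2 ratio was 0.32 in the neutrophil class, -2.13 in Cd3e+ cells and -3.20 in the macrophage class, against -0.56 for all cells. Without the top cell of each group these class values were 0.25, -0.69 and -3.60. On day 2 it was -0.28 in Cd3e+ cells and -2.24 in the macrophage class, against -2.53 for all cells. Inside the classes of IM834 single cells carried much of the summed level. The macrophage class of IM834 was at -0.34 on day 3 and -0.90 on day 4, against 1.54 and 0.63 for all cells, but 1 of its 8 fresh cells held 84.2% of the fresh reads. Without the top cell of each group the values were 1.44 and -4.63. Day 3 Cd3e+ cells had no Neat1 read in 7 cells, against 56.4 CPM in the 44 fresh ones. On day 1 the ratio was 4.03 in Cd79a+ Cd79b+ cells, where 1 of 14 cells held 86.5% of the reads, 1.70 in Cd3e+ cells and 1.32 in the macrophage class. Without the top cells these were 2.96, 0.64 and 2.82, and the median was 0 in each of these class groups.

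The neutrophil class was unequally spread over the groups, and the Neat1 ratios given next kept their direction without it. It held 19 fresh, 14 6 h and 1 day 2 cells of IM793, and 0 fresh, 5 day 1, 0 day 3 and 0 day 4 cells of IM834. Without these cells the log2 ratio was -1.20 at 6 h (-0.56 with them), -2.27 on day 2 (-2.53) and 3.79 on day 1 (4.00), and -3.13 between the fresh pools (-3.69). On day 1, 65.9% of the Neat1 counts lay in the 29 cells of no marker class, 9 of which reached 1000 rpm. Of these 9, Lyz2, a myeloid gene, was at 10 rpm or more in 9, Itgam in 7, Ccr2 in 6, Csf3r in 5 and the monocyte marker Ly6c2 in 2, and S100a8, S100a9, Cd3e, Cd79a and C1qa in 0. In the 20 other cells of no class Lyz2 was at that level in 11, Ccr2 in 9, Itgam in 6, Ly6c2 in 3 and Csf3r in 1. Within the macrophage class Neat1 was at 1337 CPM in the 6 fresh cells of IM793 and 202.6 CPM in the 8 fresh cells of IM834.

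Pooled over all groups, Gas5 was read in about the same share of lymphocyte and macrophage class cells and in few neutrophil class cells: 78.1%, 78.3% and 77.8% against 20%. The shares were not alike in all groups, at 9 of 16 Cd3e+ and 23 of 29 Cd79a+ Cd79b+ cells on day 2 and 5 of 10 macrophage class cells on day 4 of IM834. Fewer genes were read in neutrophil class cells, with a median of 1106 other genes in fresh cells of IM793 against 2192 in Cd3e+ cells. The Gas5 median was 64.3, 103.5 and 222.02 rpm in fresh, 6 h and day 2 cells of IM793, with highest levels of 2086, 2813 and 2528 rpm. In IM834 the median was 266.9, 171.7, 265.2 and 0 rpm in fresh, day 1, day 3 and day 4 cells, with highest levels of 2473, 3759, 3864 and 2334 rpm, and the lowest level was 0 in every group. The summed log2 ratio lay between -0.09 and 0.63 up to day 3 and was -1.22 on day 4, where 12 of 19 cells had no read and 1 cell held 65.6% of the counts; without the top cell of each group it was -2.58. The direction differed between marker classes and whole groups. On day 2 the ratio was -0.87 in Cd3e+ cells and -0.75 in the macrophage class, against 0.63 for all cells. At 6 h it was 0.45 and -1.02 in these classes, against 0.57. On day 1 it was -0.92 in Cd79a+ Cd79b+ cells, 0.32 in Cd3e+ cells and 0.30 in the macrophage class. On day 3 the macrophage class lay at 0.66, and the Cd3e+ class at 0.94 by sums but -0.47 by medians, since 1 of its 7 cells held 81.1% of the reads. On day 4 the macrophage class was at -2.12, with 95% of the reads in 1 cell. Between fresh cells of the pools it was 1.22, or 1.08 without the neutrophil class. Inside classes that difference was 0.42 in Cd3e+ cells (-0.60 by medians) and -0.19 in the macrophage class (-0.67 by medians), so it was not past 2-fold in either.

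Yam1 was lower in summed level than in fresh cells at every storage time except day 3, where the log2 ratio was -0.02 and its sign depended on the scaling (0.05 by the trimmed mean of M values, TMM). Medians were 94.01, 30.04 and 54.9 rpm in fresh, 6 h and day 2 cells of IM793 and 82.3, 24, 38.6 and 2.40 rpm in fresh, day 1, day 3 and day 4 cells of IM834. The lowest level was 0 in each of these groups, and the highest level of the series, 27368 rpm, was in a 6 h cell. The other ratios were -0.83 at 6 h, -0.68 on day 2, -0.89 on day 1 and -1.04 on day 4. Inside classes they were uneven. At 6 h they were -1.03 in Cd3e+ cells, -1.23 in the macrophage class and -4.33 in the neutrophil class, and on day 2 -2.22 and -0.46 in the former pair. On day 1 they were -1.32 in Cd79a+ Cd79b+ cells, -0.25 in Cd3e+ cells and -0.75 in the macrophage class. On day 3 Cd3e+ cells were at 0.44 and the macrophage class at -0.16, and on day 4 the macrophage class was at -1.62. By mean rpm over all cells the 6 h group value turned to 1.28, past 2-fold the other way, while it was -1.61 by medians. That mean takes in the cell of 27368 rpm, where the upper quartile of 6 h cells was 108.6 rpm. It was not recomputed without this cell. Yam1 was read in 84.9% of Cd79a+ Cd79b+ cells, 86.8% of Cd3e+ cells, 65.8% of macrophage class cells and 27.5% of neutrophil class cells, all groups pooled. As said for Gas5, fewer genes were read in neutrophil class cells. The macrophage share was not alike in all groups, at 6 of 6 and 7 of 8 fresh cells of the pools, 12 of 15 on day 2 (10 of 16 Cd3e+ cells) and 28 of 51 on day 3.

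The counts of members past 2-fold were read beside the share of all genes past it. A gene was compared where it had at least 50 summed counts and a read in at least 10% of cells in both groups, which all 6 met in each comparison, and was called at 2-fold. At 6 h, 0 members were past 2-fold, where 14.4% of 5785 genes were higher and 8.19% lower. On day 2, 1 was higher (Rn7sk) and 1 lower (Neat1), against 22.5% and 10.2% of 4577 genes. On day 1, 2 were higher (Neat1 and Rn7sk) and 0 lower, against 11.3% and 15.6% of 4629 genes, and on day 3 the same 2 were higher, against 13% and 14.1% of 4023. On day 4, 1 was higher (Rn7sk) and 2 lower (Gas5 and Yam1), against 24.5% and 23.9% of 2907 genes. Both lower values fell short of 2-fold with DESeq2 size factors, at -0.95 for Gas5 and -0.77 for Yam1, and Yam1 also with TMM, at -0.95. Between the fresh pools Gas5 was higher and Neat1 lower in IM834, against 23.6% and 13.6% of 4838 genes, and between the day 4 cells Neat1 and Yam1 were higher in IM790, against 20.5% and 31.9% of 3151. The Neat1 difference there rested on 1 neutrophil class cell with 61.2% of the IM790 counts, and without that class the log2 ratio was 0.01 rather than 1.29. Rn7sk lay at or above 99.7% of the genes on day 2, 91.9% on day 1, 96.9% on day 3 and 96.1% on day 4, and Neat1 was within the lowest 1.11% on day 2.

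**Figure D5:**
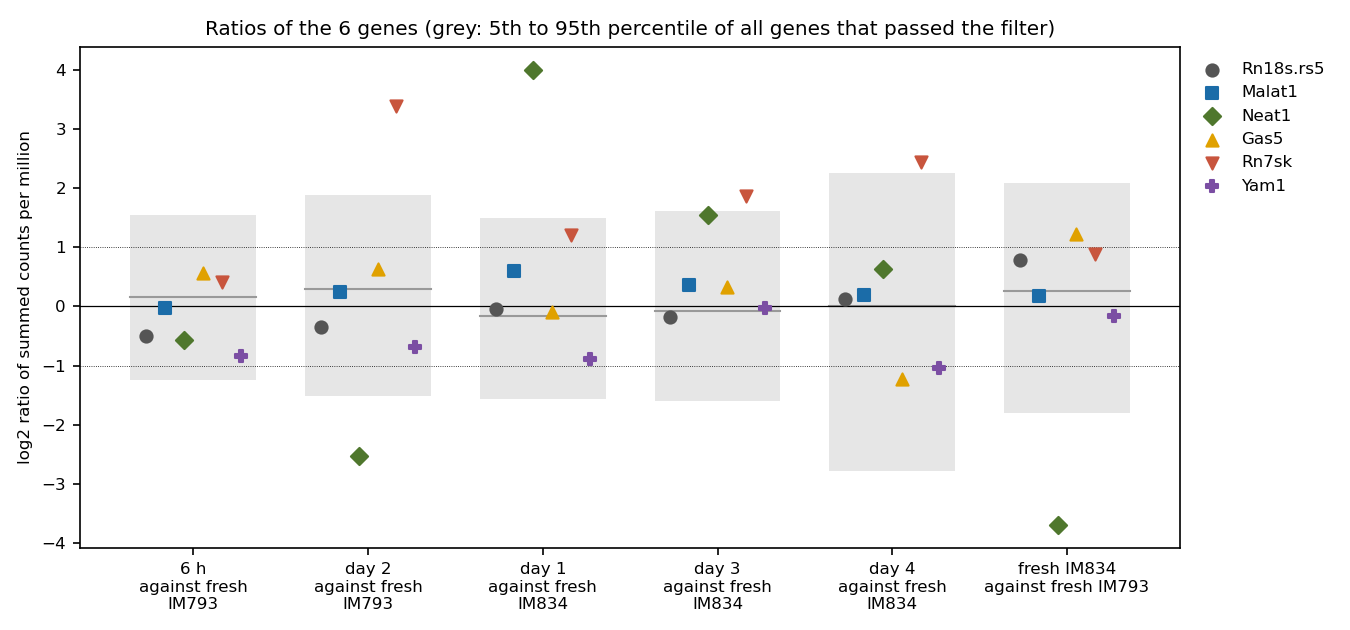
Log2 ratio of summed CPM of each gene in 6 comparisons; grey bars span the 5th to 95th percentile of all genes that passed the filter, grey lines are their median, and dotted lines mark 2-fold. Rn7sk lies above the grey bar on day 2, day 3 and day 4, Neat1 leaves it downwards on day 2 and between the fresh pools and upwards on day 1, and Rn18s.rs5 and Malat1 stay within 2-fold throughout.

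Proteins and RNAs that work with these RNAs were followed by lists. Of 8 genes of the 7SK particle and P-TEFb, 0 of 4 that passed the filter were past 2-fold on day 2, where 22.5% of all genes were higher and 10.2% lower. At 6 h 1 of 6 was lower (the kinase Cdk9, -1.33), where 8.19% of all genes were. On day 1, 3 of 7 were higher, where 11.3% of all genes were, namely Larp7 (log2 ratio 1.19) and Mepce (1.05), which bind and cap 7SK, and Hexim1 (1.10), the inhibitor that 7SK carries. These were read in 13.3%, 14.7% and 28% of day 1 cells. On day 3, 2 of 6 were higher, Hexim1 (1.49) and Mepce (1.03), each read in under 15% of cells, where 13% of all genes were higher. On day 4, 1 of 4 was higher (Larp7, 2.33) and 1 lower (Ccnt2, a cyclin of P-TEFb, -2.04), where 24.5% and 23.9% of all genes were. None of the 8 other RNA polymerase III and structural RNA rows in the table passed the filter in any comparison: the most abundant, Rpph1, the RNase P RNA, was at 1.05 CPM over all cells, and Vaultrc5 at 0.825 CPM.

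Of the 15 nuclear speckle genes 0 of 15 were past 2-fold at 6 h, where 14.4% of all genes were higher and 8.19% lower, and 0 of 14 on day 2, where 22.5% and 10.2% were. On day 1 2 of 15 were lower and on day 3 1 of 15, where 15.6% and 14.1% of all genes were lower, and on day 4 of IM834 0 of 12 were higher and 6 lower, where 23.9% of all genes were lower. These included Srsf5 (log2 ratio -2.78), Srsf6 (-2.46) and Srrm1 (-3.99), the latter pair read in 2 of 19 cells each, and the median of the list was -1.05 against 0.01 over all genes. Of the 11 paraspeckle genes 9 or 10 were compared at 6 h and on days 1 to 3, with 1 or 2 past 2-fold in each direction, where 8.19% to 22.5% of all genes were, and on day 4 2 of 8 were higher and 0 lower, where 24.5% and 23.9% of all genes were. Among the other snoRNA host genes, Snhg8 (2.43), Snhg5 (2.18) and Snhg6 (1.91) were higher on day 2, 3 of 4 compared, where 22.5% of all genes were higher. The list median was 2.05 against 0.29 over all genes, whereas Gas5 was at 0.63. The 3 Snhg genes were read in 38.5%, 24.4% and 14.1% of day 2 cells and in 32%, 13.3% and 18.7% of fresh cells of IM793. Day 2 held 29 Cd79a+ Cd79b+ cells, where fresh cells of IM793 held 0. At 6 h 2 of 4 of these host genes were higher, where 14.4% of all genes were, on day 1 1 of 4 (Snhg6, 1.22), where 11.3% were, and on day 3 0 of 3, where 13% were. On day 4 1 of 3 was lower (Snhg8, -1.93), where 23.9% of all genes were. Xist, the nuclear RNA of the inactive X chromosome, was read in 80% of day 1 cells of IM834 and in 2.47%, 0% and 5.26% of its fresh, day 3 and day 4 cells. In IM793 it was read in 64%, 55.3% and 37.2% of fresh, 6 h and day 2 cells, and in IM790 in 57.1% of day 4 cells. The comparisons of fresh pools and of day 4 pools thus also differ in Xist. Xist is made in female cells, and the part of the animals' sex in the other differences was not tested.

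Against the number of other genes read per cell, thinned to 100000 counts, the members differed in sign. Rn18s.rs5 had a Spearman rho of -0.03 to -0.54 in the 6 groups of at least 30 cells. Malat1 was at -0.18 to -0.45 in 5 groups and at 0.19 on day 3 of IM834, the group with 10 cells lacking it. Gas5 was at 0.14 to 0.46 in 5 groups and -0.05 in fresh cells of IM834. Rn7sk lay between -0.08 and 0.27, Yam1 between -0.00 and 0.39, and Neat1 between -0.35 and 0.32. In the 49 cells with under 1000 other genes Malat1 was read in 71.4%, Rn7sk in 30.6%, Yam1 in 28.6% and Gas5 in 20.4%, against 98.7%, 67.8%, 82.6% and 72.2% of the 453 others, which had more counts (median 712369 against 452644). Neat1 was read in 32.7% against 46.6%. Cells set apart by few genes read have a lower share for most genes by construction, and no genes of like detection were set beside the members here. Of the 49 cells, 14 were day 3 and 8 were day 4 cells of IM834. The cells of a group share a library pool and a depth range.

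The genes whose level was most like that of each member were ranked by the mean rho over the same 6 groups among 2343 genes. Rn18s.rs5 was most like Lars2 (0.54) and the mitochondrial ribosomal RNAs mt.Rnr2 (0.44) and mt.Rnr1 (0.37). Yam1 and Rn7sk both had Gm26917 as the nearest gene, at 0.45 and 0.31. Gm26917, whose row borders that of Rn18s.rs5 on the genome, had a rho of 0.03 to 0.43 with Rn18s.rs5 and of 0.20 to 0.73 with Yam1. Malat1 was nearest to Btg1 (0.28), Klf2 (0.27) and Neat1 (0.23), Neat1 to Alox5ap (0.42), Ifitm3 (0.41) and Zfp36 (0.39), and Gas5 to X1500012F01Rik and Eif3h (both 0.29) and Rps26 (0.26). Apart from Lars2 with Rn18s.rs5 these mean values were 0.45 or less, and as the top ranks they lie above most genes by selection. The 95th percentile of the mean rho was 0.12 for Rn18s.rs5, 0.091 for Malat1, 0.20 for Neat1, 0.19 for Gas5, 0.11 for Rn7sk and 0.17 for Yam1. The part of depth in these values was not tested.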

How the data were processed

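Single Cd45+ kidney cells were profiled with SmartSeq2. Per the labels and the study's methods, the authors trimmed reads to 75 bp, took out duplicate reads (picard), aligned the rest with STAR to GRCm38, counted reads on genes with HTSeq without regard to strand, and left out cells under 1000 reads; for these steps, versions were not given in the sources used here. Deposited values are raw counts per gene and cell for 502 cells. Spike-in and vector rows (97 rows, 0.140% of counts) were left out, and rpm is per 1000000 counts on gene rows. For each timepoint and pool the counts of its cells were added, and ratios of summed CPM are given with no test, since each such group is 1 sample. Shares of cells carry exact Clopper-Pearson intervals. Marker classes needed every marker at 10 rpm or more: Cd79a and Cd79b, Cd3e, C1qa to C1qc, or Csf3r and S100a8, and 162 cells met none. They are sets by marker, not clusters, and doublets were not called (4 cells met more than 1 rule). Genes per cell were counted after thinning to 100000 counts, which drops 10 cells. Named genes of a list are those past 2-fold or first by abundance or likeness; Tmsb4x, Actb, Ftl1, Apoe, Cx3cr1, Adgre1, Csf1r, H3f3b, Coro1a, Dusp1, Ccnl1, the figure's labels and the genes of the 9 day 1 cells were chosen after other values were seen. The ratio and thinning steps were tested on simulated data. The members and lists were chosen with earlier results of these data known. Python 3.11.15, pandas 2.3.3, scipy 1.17.1, edgeR 4.0.16 (TMM) and DESeq2 1.42.0 (size factors) were used.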

Additional observations from a re-analysis of the deposited data

Results flagged for a closer look

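At 6 h in IM793 the Rn7sk log2 ratio to fresh cells was 2.12 in the C1qa+ C1qb+ C1qc+ class and -1.28 in Cd3e+ cells, so these classes stood apart because they went opposite ways past 2-fold. The macrophage value rests on 5 cells of 6 h and 6 fresh cells, with 97.8% of the 6 h reads in 1 cell, and the Cd3e+ value on 20 and 9. Without the top cell of each group the macrophage value was -1.57 and the Cd3e+ value -1.45, so the opposite directions were lost. The difference was not tested.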

How the results depend on the processing

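No paired analysis was possible because no label ties cells of different timepoints to 1 animal and no test was run. Cells are not replicates, so none was left out in turn. Of 534 alternative values of the member ratios, 449 lay within 0.5 of the main log2 ratio, 83 moved further and 2 that were past 2-fold changed sign. All 42 ratios stayed within 0.5 under TMM, DESeq2 size factors, totals without Rn18s.rs5 or also without mitochondrial genes, and in cells of at least 100000 counts. TMM shifted all genes by -0.18 at 6 h and on day 2, and DESeq2 size factors by 0.27 on day 4. Rn7sk on day 2 was 5.51 by medians and 2.77 by mean log2(rpm + 1), on day 3 1.01 and 0.79, and on day 4 -2.74, a change of sign, and 0.31, with 3.28 by mean rpm and 3.11 in cells with Malat1. Malat1 on day 3 was -1.58 by mean log2(rpm + 1), and on day 4 -2.02 by medians, -4.61 by mean log2(rpm + 1), 0.86 in cells with Malat1 and 0.72 in cells of at least 1000 other genes. Neat1 on day 3 was -1.32 against all fresh cells, the other change of sign of a value past 2-fold. Against all fresh cells Neat1 was also 0.26 at 6 h, -1.71 on day 2, 1.14 on day 1 and -2.24 on day 4. The signs at 6 h and on day 4 turned as well, from values that were not past 2-fold. Members past 2-fold at 6 h numbered 2 by medians and by mean log2(rpm + 1), and 1 by mean rpm (Yam1, at 1.28, the direction turned), by TMM, without the top cells, in cells of at least 1000 other genes and without the neutrophil class; on day 4 there was 1 by DESeq2 size factors (Gas5 and Yam1 being lost), and between day 4 pools there were 5 by medians and by mean log2(rpm + 1), and 1 in cells of at least 1000 other genes and without the neutrophil class. The share of all genes past 2-fold was 17.2% to 37.3% where it moved with 1 count required, and 4.03% to 15.6% with reads in at least 25% of cells. Inside marker classes 96 alternative values stayed within 0.5, 19 moved further and 1 that was past 2-fold changed sign, Rn7sk in macrophage class cells at 6 h, at -1.57 without the top cells. Thinning moved 8 of 48 shares of cells with a read beyond their interval, 6 of them of Rn7sk. The 24 rho values with genes per cell and the 24 of likeness stayed within 0.1. The alternatives on top cells (in groups and classes), on cells with Malat1 or 1000 genes and on the neutrophil class were chosen after seeing the data; the cause of each change was otherwise not tested.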
